A study of Mus musculus with 4 samples.

Results

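MEF2 proteins are transcription factors that bind an A/T-rich DNA box and couple neuronal activity to gene expression. Calcineurin (the Ca2+-dependent phosphatase) and the kinases p38 and ERK5 act on them, and class IIa histone deacetylases hold them in a repressed state. Mef2c is known in cortical inhibitory neurons as a gene required for the development of parvalbumin cells, which arise with somatostatin cells in the medial ganglionic eminence (MGE), whereas Adarb2 marks inhibitory neurons of the caudal ganglionic eminence (CGE). The genes described here are Mef2a, Mef2c and Mef2d, 3 of 21938 protein-coding genes, together with the 4 of 579 transcription factor motifs whose name starts with MEF2 (MEF2A, MEF2B, MEF2C and MEF2D). They were chosen by name, with earlier results of these data known.

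Chromatin accessibility was measured in single nuclei of mouse brain at postnatal day 30 with the 10x Genomics assay, in 2 libraries of cortex and 2 of hippocampus. All 4 libraries came from Dlx6aCre;Sun1/sfGFP mice, in which Cre from a Dlx6a transgene of forebrain inhibitory neurons turns on a green fluorescent protein of the nuclear envelope, and DAPI+/GFP+ nuclei were sorted. The groups share this genotype, age and sort and differ in the region dissected. The labels do not say how many animals a library pooled or whether replicates came from separate litters, so p-values between libraries measure the spread between these libraries, which may be technical. Libraries held 2355 to 5576 nuclei and 32005984 to 117290059 cut sites, the ends left by the transposase inside the peaks of the library. The median nucleus carried 47236 cut sites in cortex replicate 1 and 7352 to 14917 in the other libraries. Peaks had been called in each library by itself and numbered 127726, 61965, 157220 and 98419 (cortex replicates 1 and 2, then hippocampus replicates 1 and 2, the order kept below). Pairs of libraries shared 11 to 47 cell barcodes. Pan-GABA genes (Gad1, Gad2, Slc32a1, Dlx1, Dlx2, Dlx5 and Dlx6) all carried cut sites in every library, at 683 to 1085 summed cut sites per 1000000 of the library, whereas the excitatory list summed to 24.9 to 41.4, with Neurod6 at 0 throughout. Lists of oligodendrocyte-lineage, microglial and astrocyte genes were not at 0 and summed to 183 to 256, 204 to 265 and 155 to 186 on the same scale, although Aif1 was at 0 in all 4 libraries, Aqp4 and Gja1 in 3 each, and Olig2, Sox10, Mog and Mag in cortex replicate 2. Vip was at 0 in both hippocampal libraries.

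A gene was measured by the cut sites in those of a library's peaks that touched its window, from 2 kb before its start to its end (GRCm38, GENCODE M21). Levels were scaled over all genes with TMM factors and are given below as normalised cut sites per 1000000 (CPM). A sum over nuclei does not separate fewer nuclei with open chromatin from less open chromatin per nucleus. Mef2a (ENSMUSG00000030557) spans chr7:67231163-67372858 on the minus strand and overlaps Lysmd4 on the other strand at its 3′ end. Mef2c (ENSMUSG00000005583) spans chr13:83504034-83667080 on the plus strand. Mef2d (ENSMUSG00000001419) spans chr3:88142372-88172086 on the plus strand, and the antisense gene 1700113A16Rik overlaps its end. The assay does not record strand, so cut sites in the overlapped parts belong to both genes.

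The windows of Mef2a, Mef2c and Mef2d held 56, 83 and 6 matches to the 10-base MEF2 consensus, which reads the same on both strands as a pattern, in 143696, 165047 and 31715 bp of sequence. Of these, 1, 13 and 3 lay in a peak of at least 1 library. The single accessible Mef2a match covers the annotated start of the gene, in its 5′ UTR at chr7:67372841-67372870 (minus strand), and lay in a peak of all 4 libraries. Among RefSeq promoters of GRCm38.p6, 1047 of 32851, or 3.19%, held the consensus, and the Mef2a promoter was the only one of the 5 promoters of these genes to do so. The Mef2c match inside the region of its main open start, in an intron at chr13:83524024-83524053, also lay in a peak of all 4 libraries. The Mef2d match upstream of its start, at chr3:88140783-88140812, lay in a peak of cortex replicate 1 and hippocampus replicate 1. These sites are shown because they are the matches nearest to an open start of each gene, with the consensus in capitals.
Mef2a start: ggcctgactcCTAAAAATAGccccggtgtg
Mef2c start region: caccgtaaaaCTAAAATTAGcaaaatgtca
Mef2d upstream: tggggaagcaCTAAAAATAGaggccacaag

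Inside Mef2c, a pair of identical matches lay 22 bases apart in an intron, about 100 kb from the first start, in peaks of 3 of the 4 libraries (not cortex replicate 2). The stretch chr13:83603925-83604056 (plus strand) holds them and is shown because the region around it is one of those that differed between groups of nuclei below. The stretch chr13:83588274-83588473 is the centre of another such region and holds no match; its capitals mark a GC box (GGGCGG, searched on both strands), which 35.7% of RefSeq promoters hold. A match is a description of the sequence and not a binding site.
Mef2c intron, paired matches: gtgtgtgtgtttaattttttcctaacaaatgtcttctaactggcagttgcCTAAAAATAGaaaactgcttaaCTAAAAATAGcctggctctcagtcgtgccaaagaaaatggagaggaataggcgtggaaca
Mef2c intron, no match: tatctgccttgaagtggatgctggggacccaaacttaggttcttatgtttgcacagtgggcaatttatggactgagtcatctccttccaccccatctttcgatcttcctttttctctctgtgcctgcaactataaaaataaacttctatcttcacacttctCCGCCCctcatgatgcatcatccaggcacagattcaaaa

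To ask whether Mef2 genes differed between cortex and hippocampus, cut sites were summed over all nuclei of a library. No difference in any of the 3 genes between tissues was detected. Mef2c had 279.5, 109, 196 and 138 CPM, so that the 2 hippocampal values lay between the 2 cortical ones. Mef2a had 83.3, 39.5, 28.3 and 57.1 CPM, and the tissues overlapped again. Mef2d had 208.5, 169, 146 and 140.5 CPM and was the gene in which both cortical libraries lay above both hippocampal ones.

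Hippocampus minus cortex, the log2 fold change was -0.22 ± 0.48 (SE) for Mef2c, -0.53 ± 0.49 for Mef2a and -0.40 ± 0.25 for Mef2d, each with an adjusted p of 1.00 (edgeR robust quasi-likelihood test, Benjamini-Hochberg over 16323 genes, 2 libraries per tissue). The 95% interval of Mef2c ran from -1.16 to 0.73, and that of Mef2d from -0.88 to 0.08. Over all genes 1 passed the threshold of 0.05 in this comparison, 0.00613% of those tested (357 at an unadjusted p under 0.05, and 153 adjusted calls by DESeq2), so that a count of 0 of 3 is near the background. The direction of Mef2c rested on single libraries. It was 0.62 without cortex replicate 1 and 0.05 without hippocampus replicate 2, and -0.71 without cortex replicate 2.

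Peak calling moves with these values. Peaks covered 31.7 kb of the Mef2c window in cortex replicate 1 but 3.68 kb in cortex replicate 2, and 18.8 and 8.49 kb in the hippocampal libraries. Per kb of peak, Mef2c carried 7.43, 28.8, 8.33 and 14.9 cut sites per 1000000, the reverse of its order by CPM, while the average over all peaks of the library was 10.2, 29.9, 9.86 and 16.1. On this scale, where genes can be compared with each other, Mef2a carried 9.13, 41.7, 9.71 and 22.8 and Mef2d 12.2, 27.0, 9.96 and 15.3. Mef2c was the least densely cut of the 3 genes in cortex replicate 1, hippocampus replicate 1 and hippocampus replicate 2, and lay below the library average in all 4 libraries. With covered length as an offset the log2 fold changes turned positive (0.36 for Mef2c, 0.36 for Mef2a and 0.15 for Mef2d, adjusted p 0.980 each), beside a shift of 0.28 in the median of all genes.

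**Figure D1:**
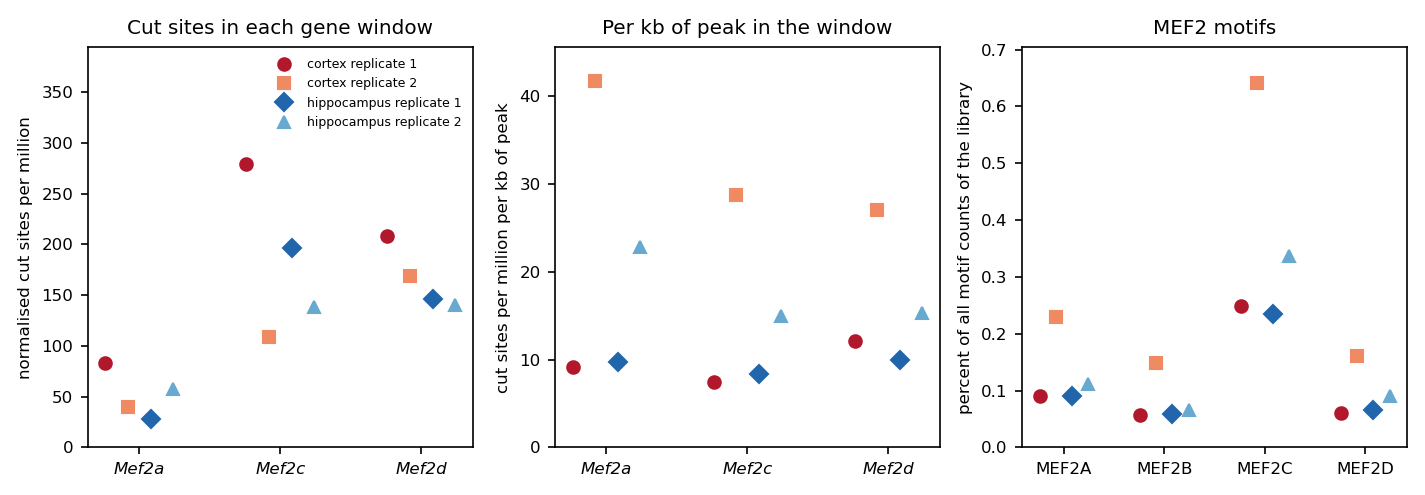
Mef2 genes and MEF2 motifs in each library, summed over all nuclei. Points are libraries, with circles and squares for cortex and diamonds and triangles for hippocampus, plotted as CPM (left), as cut sites per 1000000 per kb of peak (middle) and as percent of all motif counts (right); cortex replicate 2 is the highest in every gene of the middle panel and every motif of the right panel.

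The deposited motif matrices gave the same picture for MEF2 motifs. Counts in these matrices were read as cut sites in peaks that hold a motif, which the files do not state, and the 4 MEF2 motifs describe nearly the same DNA box, so they are not independent of each other. The MEF2C motif took 0.249%, 0.642%, 0.234% and 0.338% of all motif counts of the library. The MEF2A motif took 0.0899%, 0.229%, 0.0900% and 0.112%, the MEF2B motif 0.0578%, 0.149%, 0.0579% and 0.0664%, and the MEF2D motif 0.0597%, 0.162%, 0.0657% and 0.0910%. Cortex replicate 2, the library with the fewest peaks and the highest G+C content of peaks (54.2%, against 49.9% to 51.9% in the others), was the highest in all 4 motifs, and the other cortical library was the lowest or next to lowest.

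The highest library exceeded the lowest by 2.55-fold to 2.74-fold in the share of all motif counts, which ranked the 4 motifs 87 to 109 of 579 by this spread. Hippocampus minus cortex, log2 fold changes were -0.52 ± 0.47 (MEF2C), -0.54 ± 0.43 (MEF2A), -0.61 ± 0.43 (MEF2B) and -0.38 ± 0.46 (MEF2D), with an adjusted p of 0.996 each by edgeR. No motif of the 579 was called between tissues, 0.0% (1 at an unadjusted p under 0.05, and 0 adjusted calls by DESeq2). Without cortex replicate 1 the 4 changes were -0.84 to -1.05 and 3 were called, and without cortex replicate 2 they were 0.09 to 0.38, so the sign depended on which cortical library entered.

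Nuclei were next compared within each library, where peaks are the same for all nuclei. In each library, nuclei in the top quintile for cut sites at Pvalb, Sst or Adarb2, given their depth, and not in the top quintile for another of these genes were called Pvalb-high, Sst-high and Adarb2-high. Cut sites were summed over the nuclei of a gate, giving 12 sums, and compared in edgeR with library as a block. The gates held 356 to 841 nuclei per library. The MGE genes Lhx6, Sox6 and Satb1 were higher in Pvalb-high and in Sst-high than in Adarb2-high nuclei (3 of 3 tested, log2 fold changes 0.58 to 0.84), and the CGE genes Htr3a, Nr2f2 and Vip were lower in Pvalb-high than in Adarb2-high nuclei (-1.08, -0.43 and -1.5), 3 of 4 tested. In Sst-high minus Adarb2-high nuclei 1 of the 4 CGE genes was called lower, Htr3a (-0.86). Vip carried no cut sites in either hippocampal library, so its change rests on the cortical ones. Of all genes, 4.73% were called higher and 3.62% lower in Pvalb-high than in Adarb2-high nuclei. In Sst-high minus Adarb2-high nuclei, 2.56% were called higher and 2.83% lower.

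The Sst gate was weaker than the others. Every Pvalb-high and Adarb2-high nucleus held a cut site of its gating gene, as did every Sst-high nucleus of cortex replicate 1. In the other 3 libraries only 51.4%, 37.9% and 34.6% of Sst-high nuclei did, and their median depth was 3701, 3939 and 7461 cut sites, against 8322.5 to 17895 in the other gates of these libraries. The gates did not exclude cut sites of another gating gene. In cortex replicate 1, 59.9% of Pvalb-high and 52.9% of Sst-high nuclei also held an Adarb2 cut site. A Pvalb cut site was held there by 45.0% of Sst-high and 37.1% of Adarb2-high nuclei. An alternative added after the data were seen required at least 1 cut site of the gating gene. It left 367, 225, 273 and 138 Sst-high nuclei, of median depth 45698, 8570, 15805 and 17965.5, close to that of the other gates, and is given beside each result as the cut-site gate. Under the cut-site gate 3 of 4 CGE genes (Htr3a, Prox1 and Vip) were called lower in Sst-high than in Adarb2-high nuclei, beside 4.34% of all genes.

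Markers of other cells moved with the Sst gate. Under the first gate, 2 of 7 oligodendrocyte-lineage genes were higher in Sst-high than in Adarb2-high nuclei (Olig1 by 1.16 and Sox10 by 0.95 on the log2 scale), and the list was higher in the hippocampal Sst gates. It summed to 252, 179, 383 and 376 cut sites per 1000000 in Sst-high, 257, 189, 214 and 213 in Pvalb-high and 217, 165, 234 and 217 in Adarb2-high nuclei. Of the pan-GABA genes, 4 of 7 were lower in Sst-high than in Adarb2-high nuclei (Gad1 -0.39, Dlx1 -0.35, Gad2 -0.30 and Dlx2 -0.30). Of all genes, 2.56% were called higher and 2.83% lower in this comparison. Under the cut-site gate no oligodendrocyte gene was higher in Sst-high nuclei, Mag and Mog were lower than in Adarb2-high nuclei (-1.36 and -0.85), the list summed to 172 to 252, and Gad1 and Dlx1 were still lower (-0.31 each). Csf1r, a microglial gene, was higher in Pvalb-high than in Adarb2-high nuclei under both gates (0.45 and 0.44). Under the cut-site gate Csf1r and P2ry12, 2 of 4 microglial genes tested, were higher in Pvalb-high than in Adarb2-high nuclei. The same 2 genes were then also higher in Sst-high than in Adarb2-high nuclei. Under this gate, 5.93% of all genes were called higher in Pvalb-high and 4.92% in Sst-high than in Adarb2-high nuclei. In Sst-high minus Adarb2-high nuclei, 4.34% were called lower. The part of oligodendrocyte-lineage and microglial cells in the results below was not tested beyond the 2 gates and the omission of nuclei low in pan-GABA genes.

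Mef2c was the Mef2 gene that differed between these nuclei, with less accessible chromatin in Sst-high nuclei. In Pvalb-high nuclei it had 289, 115, 231 and 155 CPM. In Sst-high nuclei it had 248, 87.2, 161 and 115 CPM. In Adarb2-high nuclei it had 291, 119, 189 and 142 CPM. Sst-high nuclei were the lowest in each of the 4 libraries, while Pvalb-high nuclei were above Adarb2-high nuclei in the hippocampal libraries and slightly below them in the cortical ones.

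Pvalb-high minus Sst-high, Mef2c differed by a log2 fold change of 0.38 ± 0.07 (SE, 95% interval 0.25 to 0.51, adjusted p 0.000996, edgeR, higher in 4 of 4 libraries). In this direction 4.78% of the 16158 genes tested were called. The call was lost in nuclei of middle depth (0.29, adjusted p 0.0584), and Sst-high nuclei were shallower than the other gates in 3 libraries. Sst-high minus Adarb2-high, it was -0.29 ± 0.07 (adjusted p 0.0140, lower in 4 of 4 libraries), where 2.83% of genes were called lower. This call was lost in nuclei of middle depth (-0.10, adjusted p 0.731), with ranking by count over depth (-0.12, 0.380), without nuclei low in pan-GABA genes (-0.20, 0.0867) and in common regions (-0.20, 0.0828). Pvalb-high and Adarb2-high nuclei could not be told apart, at 0.10 ± 0.07 (95% interval -0.03 to 0.23, adjusted p 0.418). The levels of Mef2c thus ran from Pvalb-high and Adarb2-high, which did not differ beyond their spread, down to Sst-high nuclei.

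The same order held with smaller steps under the cut-site gate. Sst-high nuclei then had 248, 101, 184 and 134 CPM, against 289, 115, 229 and 154 in Pvalb-high and 290.4, 118, 187 and 139 in Adarb2-high nuclei. The difference of Pvalb-high and Sst-high nuclei was 0.24 ± 0.06 (adjusted p 0.0152, higher in 4 of 4 libraries, 4.69% of 16166 genes called in this direction). It was not called without cortex replicate 1, hippocampus replicate 1 or hippocampus replicate 2 (0.25, 0.21 and 0.25, adjusted p 0.0672, 0.0978 and 0.0600). The difference of Sst-high and Adarb2-high nuclei was -0.13 ± 0.06 and was no longer called (adjusted p 0.241, 4.34% of genes called lower), so that this step of the order rests on the first gate. That call was also lost, under the first gate, without cortex replicate 2, hippocampus replicate 1 or hippocampus replicate 2 (-0.25, -0.30 and -0.28).

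Mef2a and Mef2d were not called in any of these comparisons under either gate, where 8.35%, 5.39% and 7.92% of genes were called in either direction (Pvalb-high minus Adarb2-high, Sst-high minus Adarb2-high and Pvalb-high minus Sst-high nuclei) and 10.8%, 9.27% and 8.59% under the cut-site gate. Mef2a had 86.3, 32.7, 26.3 and 52.0 CPM in Pvalb-high, 74.7, 36.3, 33.0 and 62.3 in Sst-high and 96.6, 43.3, 27.1 and 51.4 in Adarb2-high nuclei. Its order differed from library to library, since Sst-high nuclei were the lowest in cortex replicate 1 and the highest in both hippocampal libraries. Its log2 fold changes lay between -0.13 and -0.04 with SEs of 0.10 to 0.11, and its difference of Pvalb-high and Sst-high nuclei turned from -0.09 to 0.12 under the cut-site gate. Mef2d had 199, 170, 148 and 144 CPM in Pvalb-high, 224, 164, 149.7 and 133 in Sst-high and 214.5, 161, 147.5 and 140.2 in Adarb2-high nuclei. It was the steadiest of the 3 genes, with log2 fold changes of -0.02 to 0.01 and 95% intervals that reached from -0.14 to 0.14.

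Whether these differences depended on tissue was tested as an interaction of gate and tissue in the same sums. None of the 3 genes passed in any of the 3 comparisons under either gate, where 0.099%, 1.64% and 1.73% of genes were called under the first gate (Pvalb-high minus Adarb2-high, Sst-high minus Adarb2-high and Pvalb-high minus Sst-high nuclei) and 0.118%, 0.068% and 0.291% under the cut-site gate. The smallest adjusted p was 0.0682, for Mef2a in Sst-high minus Adarb2-high nuclei under the first gate, and was 0.545 under the cut-site gate.

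**Figure D2:**
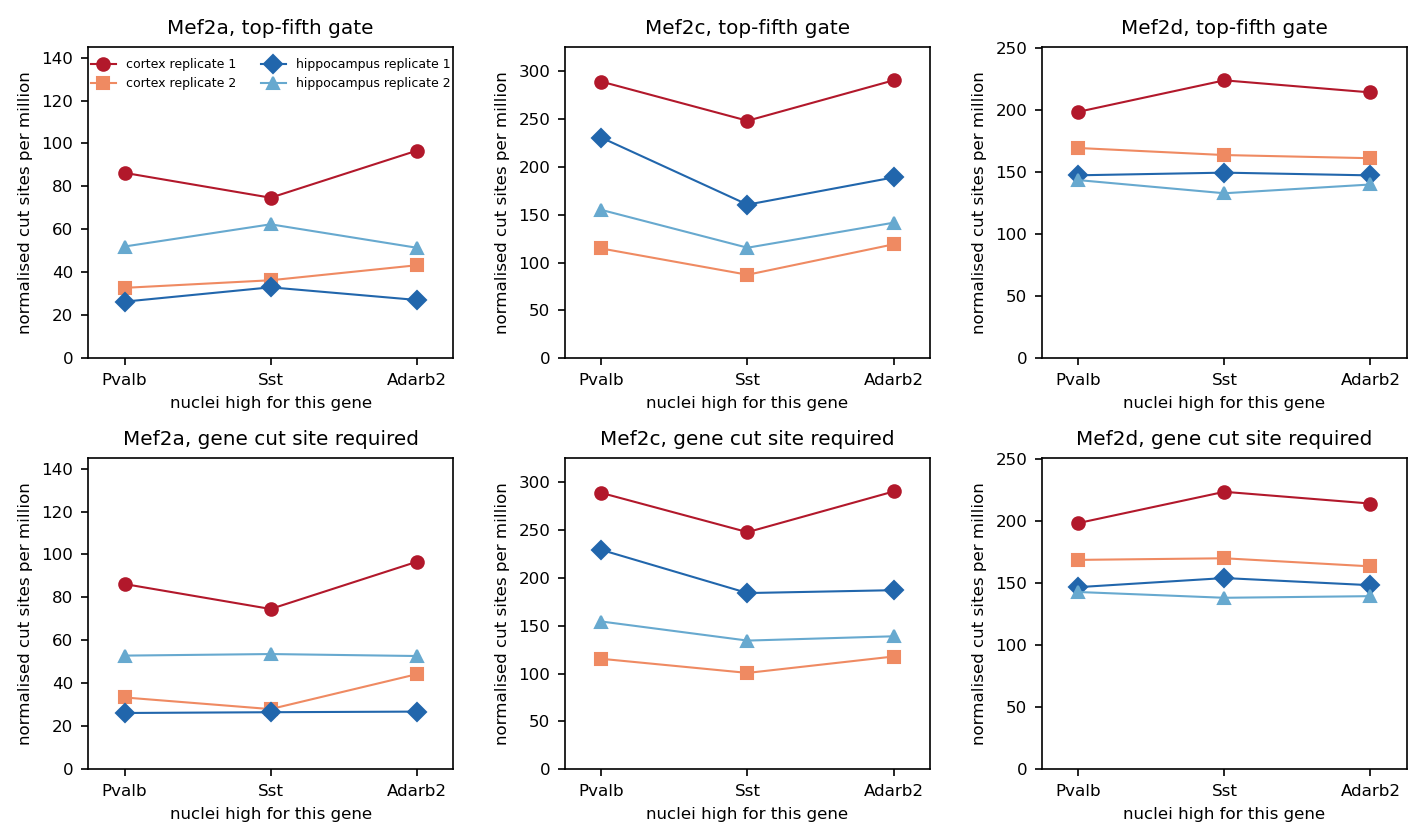
Normalised cut sites per 1000000 (CPM) at Mef2a, Mef2c and Mef2d in nuclei high for Pvalb, Sst or Adarb2, under the top-quintile gate (upper row) and with a cut site of the gating gene required (lower row). Each line joins the 3 sums of 1 library; Mef2c is lowest in Sst-high nuclei in all 4 libraries of both rows, and Mef2a and Mef2d show no common order.

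MEF2 motif counts were lower in Sst-high nuclei as well, by a few percent. For the MEF2C motif, Pvalb-high nuclei had 2744, 5872, 2530.5 and 3384 normalised counts per 1000000 motif counts. Sst-high nuclei had 2580, 5646, 2397 and 3159, the lowest in each library. Adarb2-high nuclei had 2671, 5683, 2531 and 3361, next to the Pvalb-high values in the hippocampal libraries but nearer to Sst-high nuclei in cortex replicate 2 and about midway in cortex replicate 1. These counts carry TMM factors and are not shares of all motif counts. As shares, Pvalb-high nuclei had 0.258%, 0.658%, 0.240% and 0.348%. Sst-high nuclei had 0.241%, 0.635%, 0.224% and 0.322%, and Adarb2-high nuclei 0.247%, 0.637%, 0.234% and 0.342%. By share of this motif, Pvalb-high nuclei were the highest and Sst-high nuclei the lowest in each library. Differences between gates were far smaller than those between libraries.

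Pvalb-high minus Sst-high, the log2 fold change was 0.08 ± 0.01 for the MEF2C, 0.11 ± 0.02 for the MEF2A, 0.11 ± 0.02 for the MEF2B and 0.11 ± 0.02 for the MEF2D motif. All 4 were called (adjusted p 0.000113 to 0.000401, edgeR over 579 motifs, higher in 4 of 4 libraries each), where 6.04% of motifs were called in this direction. With nuclei ranked by count over depth 2 of the 4 were called. Sst-high minus Adarb2-high, the 4 changes were -0.06 to -0.12, all called (adjusted p 0.000369 to 0.00170, lower in 4 of 4 libraries each), where 18.0% of motifs were called lower. With ranking by count over depth none of the 4 was called in this comparison. Pvalb-high minus Adarb2-high, they were -0.01 to 0.02 and none was called (7.94% of motifs were called higher and 24.9% in either direction). No MEF2 motif passed the interaction with tissue, and no motif of the 579 did (0.0%). Of the 4, 1 could not be fitted in either comparison with Sst-high nuclei under the first gate, and 1 in Sst-high minus Adarb2-high nuclei under the cut-site gate.

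All 4 motifs were still higher in Pvalb-high than in Sst-high nuclei under the cut-site gate (0.06 to 0.10, adjusted p 0.00612 to 0.0135, 4.84% of motifs called in this direction and 5.7% in the other). Without cortex replicate 1 none of the 4 was called (0.04 to 0.08). Sst-high minus Adarb2-high, 3 were called (MEF2A -0.07, MEF2B -0.10 and MEF2D -0.08) while MEF2C, at -0.02, was not (adjusted p 0.0844), and 18.7% of motifs were called lower (31.4% in either direction). Here too none was called without cortex replicate 1 (-0.02 to -0.09), and none without hippocampus replicate 1 (-0.03 to -0.10). The MEF2C motif was called in Pvalb-high minus Adarb2-high nuclei under this gate alone of the 2, at 0.03 (adjusted p 0.0304, 11.4% of motifs called higher and 33.3% in either direction).

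**Figure D3:**
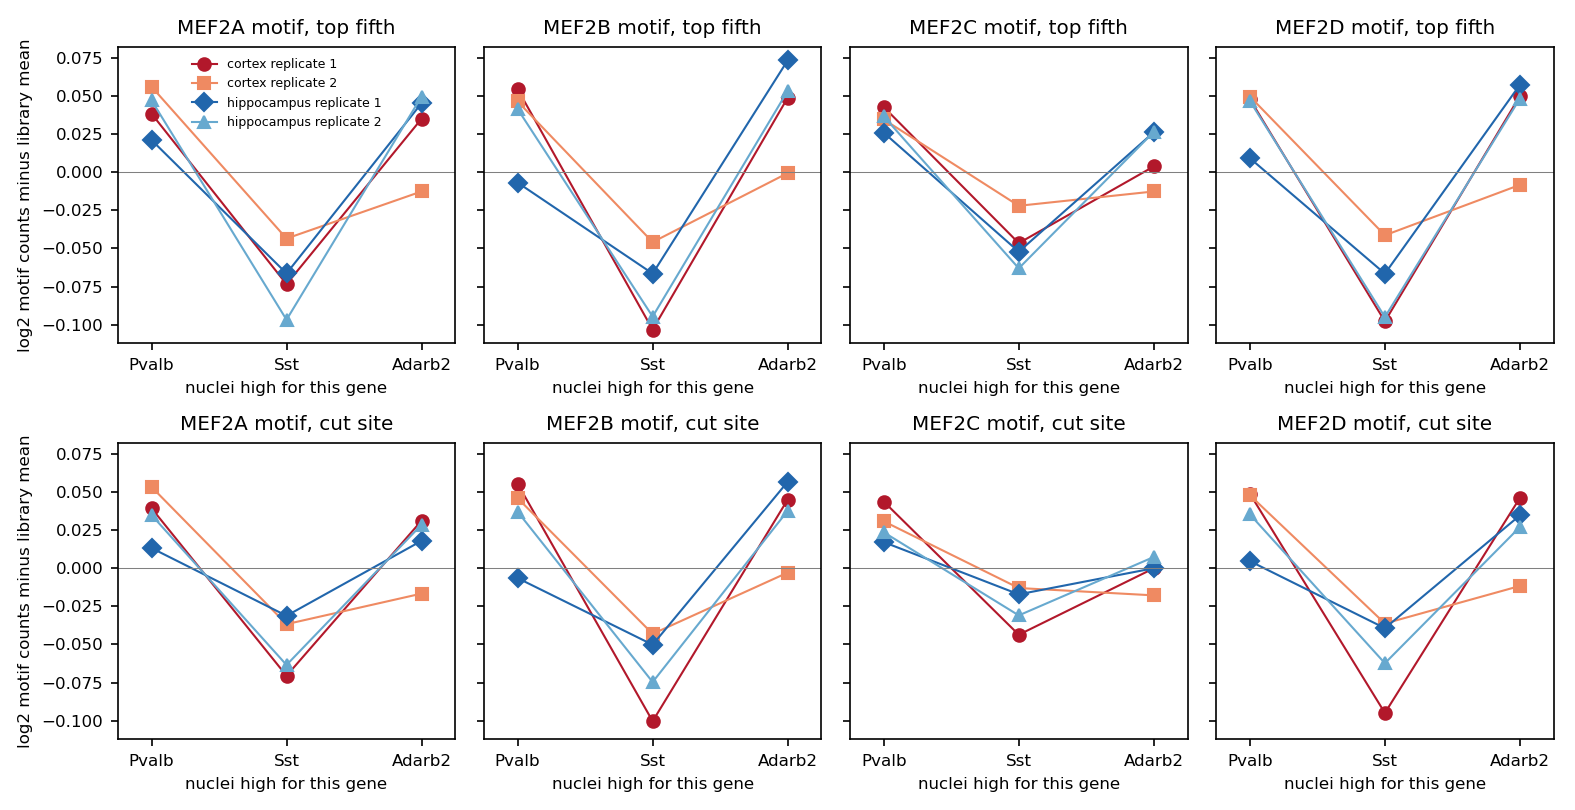
Motif counts of the 4 MEF2 motifs in nuclei high for Pvalb, Sst or Adarb2, as the log2 difference from the mean of the 3 sums of a library, under the top-quintile gate (upper row) and with a cut site required (lower row). Lines are libraries; Sst-high nuclei lie below 0 in every library and motif, within about 0.1 of it.

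A readout that does not use the motif matrix was taken from the genome. It counts cut sites of the same nuclei in merged peaks of the same libraries, for nearly the same DNA box. It is therefore not independent of the motif counts. Merged peaks that hold a peak of every library gave 46698 common regions, of which 6896, or 14.8%, held the MEF2 consensus. A match was counted anywhere in the merged span, so it need not lie in a peak of every library. In Pvalb-high nuclei 18.8%, 17.5%, 18.2% and 17.5% of cut sites in common regions lay in regions with the consensus. In Sst-high nuclei it was 17.8%, 16.9%, 17.4% and 16.8%. In Adarb2-high nuclei it was 18.1%, 17.2%, 17.8% and 17.3%. The order of Pvalb-high over Adarb2-high over Sst-high nuclei held in each of the 4 libraries under both gates.

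Pvalb-high exceeded Sst-high nuclei by 0.760 ± 0.183 percentage points (SD over 4 libraries; 0.566 ± 0.290 under the cut-site gate). Pvalb-high exceeded Adarb2-high nuclei by 0.362 ± 0.217 points (0.367 ± 0.215), and Sst-high minus Adarb2-high nuclei was -0.398 ± 0.130 points (-0.200 ± 0.110). Each of these 3 differences had an exact two-sided sign-flip p of 0.125, adjusted 0.125, which is the smallest that 4 libraries allow. Between tissues the share over all nuclei was 17.5% ± 0.457 in hippocampus and 17.7% ± 0.714 in cortex (SD, n = 2, exact permutation p 0.667, where 2 against 2 libraries cannot go below 0.333).

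Single regions, fitted on the same cut sites, leaned the same way. Of the regions with the consensus, 14.7% were called higher and 6.16% lower in Pvalb-high than in Sst-high nuclei, against 8.63% and 7.64% of all 46685 regions tested. Under the cut-site gate the shares were 13.8% and 8.37%, against 8.78% and 9.25% of all. Sst-high minus Adarb2-high, 8.58% were called higher and 11.9% lower (8.20% and 8.41% of all), but under the cut-site gate 12.8% and 13.8% (11.5% and 10.9% of all). Regions with the consensus were longer (median 1426 against 1090 bp) and lower in G+C (50.0% against 52.3%) than those without it, and the part of length and base composition in these shares was not tested.

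**Figure D4:**
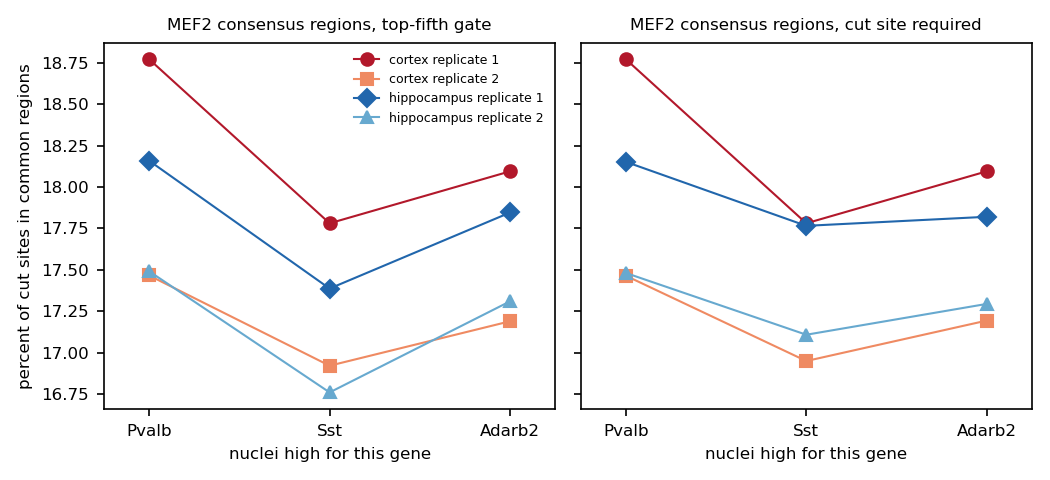
Percent of cut sites in common regions that lie in regions holding the MEF2 consensus, in nuclei high for Pvalb, Sst or Adarb2, under the top-quintile gate (left) and with a cut site required (right). Lines are libraries, and the axis does not start at 0; Sst-high nuclei are the lowest and Pvalb-high nuclei the highest in all 4 libraries of both panels.

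Of the common regions, 2 touched the window of Mef2a, 8 that of Mef2c and 6 that of Mef2d, and none was called between tissues (0.0% of 46698 regions called by edgeR, 3803 at an unadjusted p under 0.05, 352 adjusted calls by DESeq2). The main open start of Mef2c, chr13:83523177-83526456, holds 11 annotated starts and lies 20.8 kb inside the gene. It had 70.6, 64.1, 69.1 and 61.1 CPM in Pvalb-high, 58.3, 47.4, 45.1 and 45.2 in Sst-high and 62.9, 65.7, 52.0 and 55.2 in Adarb2-high nuclei. All 4 Sst-high values lay below all 4 Pvalb-high values. The difference was 0.43 with an adjusted p of 0.00209, where 8.63% of regions were called higher, and under the cut-site gate 0.29 (adjusted p 0.0167, 8.78% called higher). In nuclei of middle depth it was not called (0.22, adjusted p 0.315), nor under the cut-site gate without cortex replicate 1 (0.31, 0.0927) or hippocampus replicate 1 (0.24, 0.110).

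Other intronic regions of Mef2c went their own ways. The region chr13:83588044-83588703, 84.3 kb from the first start and with no consensus match, had 9.27, 9.27, 14.7 and 2.44 CPM in Pvalb-high and 4.70, 3.75, 6.14 and 0.983 in Adarb2-high nuclei. Pvalb-high nuclei were above Adarb2-high nuclei in each library, by 1.11 (adjusted p 0.00323) and under the cut-site gate by 1.10 (adjusted p 0.00204), where 10.3% and 11.1% of regions were called higher. In Sst-high nuclei it had 7.13, 7.84, 6.47 and 2.31 CPM, between the other gates in each library.

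The region chr13:83603647-83605125, which holds the paired matches, had 7.47, 0, 13.6 and 4.32 CPM in Sst-high and 14.3, 0.626, 15.2 and 10.8 in Adarb2-high nuclei. In cortex replicate 2 it was near 0 in every gate. Sst-high minus Adarb2-high, it was -0.76 (adjusted p 0.0494, 8.41% of regions called lower) and -0.70 under the cut-site gate, where it was not called (adjusted p 0.0644). It had 14.6, 1.1, 18.3 and 7.31 CPM in Pvalb-high nuclei, and its difference from Sst-high nuclei, 0.74, was not called (adjusted p 0.0571).

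Not every Mef2c region was lower in Sst-high nuclei. The region chr13:83565213-83566835 with 3 consensus matches was higher in Sst-high than in Adarb2-high nuclei under the cut-site gate (0.58, adjusted p 0.0259, 11.5% of regions called higher; 22.5, 16.7, 30.9 and 16.4 against 16.6, 13.9, 12.8 and 13.7 CPM). Under the first gate it was not called, at 0.38 (adjusted p 0.221). Of the 8 Mef2c regions, 7 had a positive log2 fold change of Pvalb-high over Sst-high nuclei under the first gate and 6 under the cut-site gate, with medians of 0.30 and 0.24, beside medians of -0.01 and 0.00 over all regions. Of all regions, 48.1% and 50.0% were positive. The 8 regions were counted in the same nuclei and are not independent of each other.

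The starts of the other genes were not called between gates. The start region of Mef2a, chr7:67371625-67374419, had 47.3, 35.1, 27.6 and 52.8 CPM in Pvalb-high, 51.0, 38.8, 28.0 and 64.9 in Sst-high and 52.7, 46.6, 27.7 and 55.0 in Adarb2-high nuclei (adjusted p 0.336 to 0.998). The start region of Mef2d, chr3:88137473-88144933, was the longest of the 16 regions (7461 bp), with 141, 159, 112 and 137 CPM in Pvalb-high, 164, 146, 118 and 145 in Sst-high and 151, 169.6, 118 and 135 in Adarb2-high nuclei (adjusted p 0.518 to 0.939). None of the 6 Mef2d regions was called under either gate. Of all regions, 16.3% to 20.1% were called in either direction, depending on the comparison, and 18.0% to 22.4% under the cut-site gate. With so few regions, having none called is not far from these shares. For the interaction with tissue, 1 of the 16 regions was called, that at the 3′ end of Mef2a in Sst-high minus Adarb2-high nuclei under the first gate (0.0685%, 0.808% and 0.278% of regions called in Pvalb-high minus Adarb2-high, Sst-high minus Adarb2-high and Pvalb-high minus Sst-high nuclei, and 0.223%, 0.158% and 0.0278% under the cut-site gate). The Mef2a region at its 3′ end, chr7:67227320-67231180, which also overlaps Lysmd4, was lower in Sst-high than in Adarb2-high nuclei under the cut-site gate (-0.61, adjusted p 0.0358, 10.9% of regions called lower) and was -0.54 under the first gate (adjusted p 0.0758). Of its 3861 bp only chr7:67231163-67231180 lies inside Mef2a, and the rest lies past the 3′ end of the gene. A peak that touched the gene window was counted whole, so cut sites past this end can enter the Mef2a gene values.

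The stretch before the first exon of Mef2d, chr3:88142122-88142371, lies in that region and is shown with its GC boxes in capitals. It is 73.2% G+C, holds 2 GC boxes and no MEF2 consensus. By contrast, the stretch of equal length before the first exon of Mef2c (33.6% G+C) holds neither and lies in no common region. In the open Mef2c region, the RefSeq promoter chr13:83523406-83523705 is 47.0% G+C and holds 1 GC box. Its first 67 bp, chr13:83523406-83523472, are shown for comparison; they end at the first annotated exon there, short of the RefSeq start and of that GC box.
Mef2d promoter: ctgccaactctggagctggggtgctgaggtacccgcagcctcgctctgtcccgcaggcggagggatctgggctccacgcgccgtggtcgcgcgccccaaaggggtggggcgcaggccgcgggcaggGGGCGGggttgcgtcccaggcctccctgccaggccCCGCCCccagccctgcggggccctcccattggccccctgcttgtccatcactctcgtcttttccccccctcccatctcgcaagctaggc
Mef2c open region, first bases of the promoter: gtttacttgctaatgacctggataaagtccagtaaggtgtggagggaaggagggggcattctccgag

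**Figure D5:**
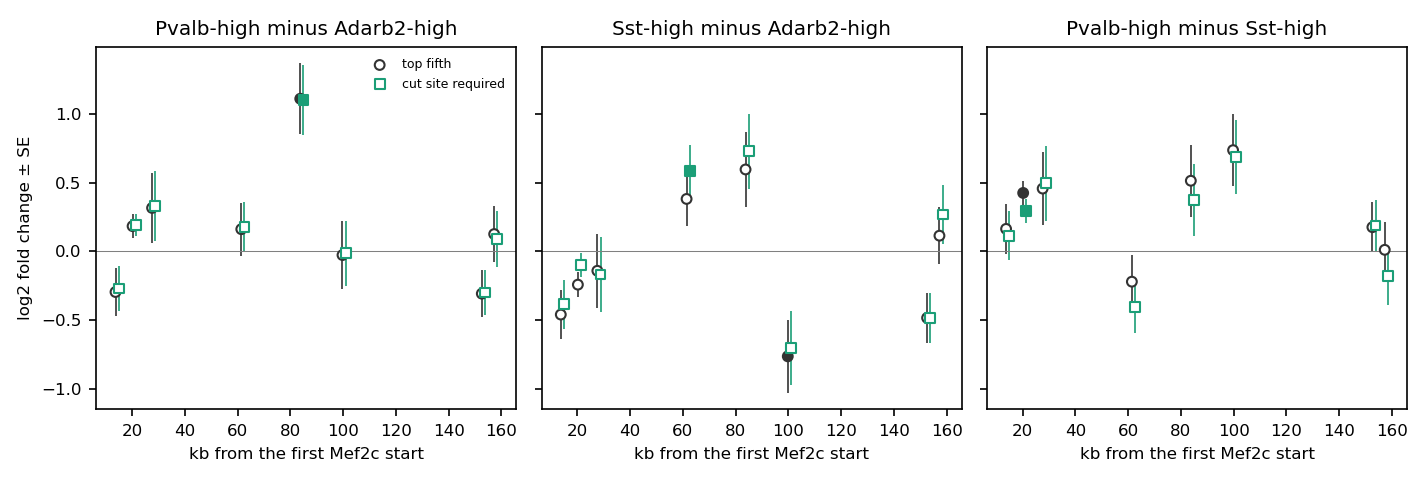
Log2 fold change ± SE (edgeR) of the 8 common regions of Mef2c, by distance in kb of the region's centre from the first annotated start, for the 3 comparisons of nuclei under the top-quintile gate (circles) and with a cut site required (squares). Filled symbols passed an adjusted p of 0.05; the region near 84 kb stands highest in the left panel, and the open start near 21 kb is filled in the right panel under both gates.

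Nuclei were also ranked in quintiles within each library by the Sst, Pvalb or Adarb2 value, as a description. In cortex replicate 1, Mef2c had 245, 243, 234, 235 and 215 cut sites per 1000000 (not TMM-normalised) from the lowest to the highest quintile for Sst. In the other 3 libraries the lower 4 quintiles held no Sst cut site and were ordered by depth, with a median depth of the top quintile of 3018 to 6956 cut sites, so that these ranks do not separate Sst from depth. Mef2c had 116, 105, 105, 94.9 and 95.1 cut sites per 1000000 in cortex replicate 2, 169, 158, 153, 146 and 134 in hippocampus replicate 1, and 133, 135, 129, 112 and 109 in hippocampus replicate 2. Most of each decline thus lay among quintiles without an Sst cut site. The share of the MEF2C motif was lowest in the top quintile in cortex replicate 1 (0.242%, against 0.245% in the one below), but in the quintile below the top in the other 3 libraries (0.629%, 0.224% and 0.323%, against 0.633%, 0.226% and 0.324% in the top one). Along Pvalb, the top quintile was the highest for the MEF2C motif in all 4 libraries and for Mef2c in 3, whereas in cortex replicate 1 the top quintile and the one below it were both at 245. In cortex replicate 2 and the hippocampal libraries, 12.4%, 16.6% and 16.1% of nuclei held a Pvalb cut site, fewer than fill a quintile. Lower ranks there were set mainly by depth, and the quintile below the top was the lowest for Mef2c and the MEF2C motif. These ranks thus do not separate Pvalb from depth either. Mef2a and Mef2d showed no order along these ranks that the 4 libraries shared.

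Gene and motif could be set against each other in the same nuclei. In nuclei ranked by Mef2c itself, the top quintile had the highest share of the MEF2C motif in each library, at 0.255%, 0.646%, 0.239% and 0.344%. The lowest share was 0.240%, 0.627%, 0.226% and 0.318%. In 3 libraries that lowest share fell in the quintile of lowest median depth (4300.5, 7337 and 9595 cut sites), and in cortex replicate 1 it fell in the bottom quintile. The regions counted at Mef2c are themselves among the peaks counted for motifs, and the part of depth in this difference was not tested.

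Among the MEF2 pathway genes, chosen with earlier results of these data known, 25 of 25 were tested. Between tissues none was called. Of Mef2b, the remaining family member, no change was called. Pvalb-high minus Adarb2-high, 3 of 25 were called higher and 2 lower, against 4.73% and 3.62% of all genes, with a median of -0.06 over the 25 and 0.00 over all genes. Sst-high minus Adarb2-high, 1 was called higher and 3 lower (2.56% and 2.83% of all genes, median -0.02), and Pvalb-high minus Sst-high, 1 was called higher and 2 lower (4.78% and 3.14%, median -0.02). Under the cut-site gate the counts were 3 and 4 (5.93% and 4.89% of all genes), 2 and 3 (4.92% and 4.34%), and 0 and 2 (4.69% and 3.9%).

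Of the 7 repressors and cofactors, class IIa deacetylases were the ones called. Hdac7 was lower in Pvalb-high than in Adarb2-high nuclei, with 153, 120, 153 and 131 CPM against 201, 142, 173.5 and 144.5 (-0.25, adjusted p 0.0265, and -0.25 with a cut site required, adjusted p 0.0061). Hdac9 was lower in Sst-high than in Adarb2-high nuclei, with 224, 127, 264 and 172 CPM against 275.5, 170.4, 335 and 221 (-0.36, adjusted p 0.00471, and -0.31, adjusted p 0.00576). Under the cut-site gate Hdac7 was lower (-0.35) and Hdac4 higher (0.21) in Sst-high than in Adarb2-high nuclei too.

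Of the 9 genes of calcium and kinase signalling, the MAP kinase genes went opposite ways. Mapk14, which encodes p38α, was higher in Pvalb-high than in Adarb2-high nuclei in each library (187, 143, 135 and 109.5 against 145, 104, 114 and 89.5 CPM; 0.33, adjusted p 0.00239). Mapk7, which encodes ERK5, was lower (53.1, 72.5, 40.3 and 63.5 against 61.3, 87.7, 59.3 and 80.3 CPM; -0.34, adjusted p 0.0199). Both also differed from Sst-high nuclei under the first gate (0.24 and -0.30), and Mapk7 under the cut-site gate (-0.30). In cortex replicate 2, however, Mapk7 was higher in Pvalb-high than in Sst-high nuclei (72.5 against 68.3 CPM, and 71.7 against 69.1 under the cut-site gate). Ppp3ca, a catalytic subunit of calcineurin, was higher in Pvalb-high than in Adarb2-high nuclei in each library, by 0.23 (adjusted p 0.0287) and 0.22 under the cut-site gate. Camk2a and Camk4, calmodulin-dependent kinases, were lower in Sst-high than in Adarb2-high nuclei (-0.29 and -0.41), and Camk4 lost its call under the cut-site gate (-0.27, adjusted p 0.0969).

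Of the 8 target genes in neurons, Arc, an activity-induced gene of synapses, was the one called under the first gate. It had 79.1, 85.3, 55.5 and 59.3 CPM in Sst-high, 55.9, 72.8, 46.1 and 53.5 in Pvalb-high and 52.5, 54.0, 37.7 and 40.0 in Adarb2-high nuclei. Sst-high nuclei were the highest and Adarb2-high nuclei the lowest in each library, which is not the order of Mef2c. The differences were 0.59 for Sst-high minus Adarb2-high (adjusted p 0.000253), 0.29 for Pvalb-high minus Adarb2-high (0.0331) and -0.30 for Pvalb-high minus Sst-high nuclei (0.0284), and all were called under the cut-site gate (0.62, 0.27 and -0.35). Nr4a1 was called under the cut-site gate, lower in Pvalb-high than in Adarb2-high nuclei (-0.25, adjusted p 0.0334).

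The genes most like each Mef2 gene were taken by Pearson's r of log2 CPM over the 12 sums after removing library means, which share library and depth and are no replicates. For Mef2c, of 16157 genes, these were Adora2b (r 0.954), Lgi2 (0.948), Tox3 (0.946), Rimkla (0.945) and Triap1 (0.944), with 0.737 to 0.886 under the cut-site gate. For Mef2a they were Lipa, Ccdc12, Piga, Togaram1 and Klhl28 (0.928 to 0.955, and 0.553 to 0.892 under the cut-site gate), and for Mef2d Dao, Gm4924, Tnfrsf25, Cnih2 and Tmc3 (0.876 to 0.900, and 0.790 to 0.905). Among the Mef2 genes themselves r was -0.24 for Mef2a and Mef2c, -0.50 for Mef2a and Mef2d and 0.04 for Mef2c and Mef2d, and 0.52, -0.42 and -0.48 under the cut-site gate, so its sign turned with the gate for 2 of the 3 pairs.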

How the data were processed

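Per the labels, nuclei were sorted for DAPI and GFP and tagged with the 10x Genomics single-nucleus ATAC assay, and the submitters' processing notes name Cell Ranger ATAC 1.2.0 and the builds GRCm38 and mm10. The deposited matrices hold raw counts made by the authors, as cut sites per peak and nucleus and as counts per motif and nucleus; peaks were called in each library separately. All deposited nuclei were used with no further filter, no doublet caller was run, and no nucleus was clustered or named.

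Counts were summed per library, or per library and gate, and tested with edgeR 4.0.16 (R 4.3.3; TMM, filterByExpr, robust quasi-likelihood F test, prior count 2, Benjamini-Hochberg over all features tested, threshold 0.05). SEs are the log2 fold change divided by the square root of F. A gate took the top 20% of nuclei by the marker's count minus its expectation from depth, divided by the square root of the expectation, and left out nuclei in the top 20% for another marker. Merged peaks with a peak of all 4 libraries were common regions (46698 of 185260). Depth was 32005984 to 117290059 cut sites per library, and the smallest gate sum of Mef2c was 226 cut sites, or 198 with a cut site of the gating gene required. The scripts were tested on simulated data. Between tissues, 4 of 100 genes, 26 of 100 motifs and 1 of 100 regions with a set 2-fold change were called. With a 4-fold change these were 58, 94 and 34 of 100, so most 2-fold differences between tissues would not be called. In Pvalb-high minus Adarb2-high nuclei, 94, 100 and 63 of 100 with a 2-fold change were called.

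Regions were named by the annotated start of each gene and by calls in each comparison (up to 3), pathway genes by their calls (up to 6 per comparison), and genes alike by the 5 highest r. The members and lists were chosen with earlier results of these data known. Alternatives were DESeq2 1.42.0, limma 3.58.1, other normalisations, filters, gates, depth ranges, peak sets and blocks, and leaving out each library. The MEF2 consensus was searched on the RefSeq GRCm38.p6 sequence with pysam 0.24.0, and all 3 genes were found in the RefSeq promoter table.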

Additional observations from a re-analysis of the deposited data

Results flagged for a closer look

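The region at the 3′ end of Mef2a, chr7:67227320-67231180, was singled out because its difference of Sst-high and Adarb2-high nuclei was not the same in both tissues. It also overlaps Lysmd4, and only chr7:67231163-67231180 of it lies inside Mef2a. It had 22.5 and 9.08 CPM in Sst-high against 43.6 and 26.3 in Adarb2-high nuclei of the cortical libraries, and 30.3 and 33.1 against 31.6 and 31.4 in the hippocampal ones. The hippocampal difference exceeded the cortical one by 1.13 ± 0.27 on the log2 scale (edgeR interaction, adjusted p 0.0298, 0.808% of 46685 regions called). Under the cut-site gate it was 1.21 (adjusted p 0.0598, 0.158% of regions called), with the top 10% of nuclei 1.02 (0.159), with ranking by count over depth 0.96 (0.135), without nuclei low in pan-GABA genes 0.78 (0.331) and in nuclei of middle depth 0.74 (0.592), so the call held under the first gate alone among these.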

How the results depend on the processing

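Of the results recomputed under each alternative, 546 kept their direction and their side of the threshold (or stayed within the stated margin), 62 counts or shares moved, 51 calls were lost, 12 were gained and 42 changed sign. None of the sign changes was a called value, and the cause was not tested unless the alternative itself uses fewer nuclei, libraries or peaks. The cut-site gate was chosen after seeing the data.

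Pvalb-high minus Sst-high, Mef2c lost its call in nuclei of middle depth (0.29, adjusted p 0.0584) and without the library block (0.36), and under the cut-site gate without cortex replicate 1 (0.25), hippocampus replicate 1 (0.21) or hippocampus replicate 2 (0.25), which left 0 of 3 genes called. Under the first gate it was 0.33 to 0.46 with a library left out. Sst-high minus Adarb2-high, 0 of 3 genes were called with common regions (Mef2c -0.20), the cut-site gate (-0.13; -0.17, -0.15, -0.11 and -0.085 with a library left out), count over depth (-0.12), pan-GABA-low nuclei left out (-0.20), middle depth (-0.10) or no library block (-0.27), and in 3 of 4 omissions of a library (-0.31 to -0.25 over the 4, 0 to 1 gene called).

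MEF2 motifs called in Pvalb-high minus Adarb2-high numbered 1 with DESeq2, RLE factors, totals, count over depth, the cut-site gate, and 0 to 1 with a library left out under either gate. In Pvalb-high minus Sst-high they numbered 2 by count over depth, and 0 without the library block or, under the cut-site gate, without cortex replicate 1. In Sst-high minus Adarb2-high they numbered 0 by count over depth, without the block and, under the cut-site gate, without cortex replicate 1 or hippocampus replicate 1 (3 to 4 with a library left out under the first gate). Between tissues they numbered 0 to 3 with a library left out. Without the library block edgeR called 0 genes in the 3 comparisons of gates.

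Regions called in Pvalb-high minus Adarb2-high numbered 2 with DESeq2 or count over depth, 0 without the block, 1 to 2 with a library left out, and 3 under the cut-site gate without cortex replicate 2. In Sst-high minus Adarb2-high they numbered 2 under the cut-site gate (2 without either hippocampal library) or by count over depth, 5 with the top 10%, 0 with totals, without pan-GABA-low nuclei or without the block, and 0 to 2 with a library left out. In Pvalb-high minus Sst-high they numbered 3 with DESeq2, 2 with the top 10%, 0 at middle depth or without the block, and 0 under the cut-site gate without cortex replicate 1 or hippocampus replicate 1. Between tissues they numbered 0 to 2 with a library left out. The consensus share of cut sites differed by 0.566 points in Pvalb-high minus Sst-high nuclei under the cut-site gate, and in Sst-high minus Adarb2-high nuclei by -0.200 (cut-site gate), -0.231 (pan-GABA-low nuclei left out) and -0.266 points (top 10%).

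Sign changes were those of values near 0 or of tissue. Pvalb-high minus Adarb2-high, the MEF2B motif was 0.0049 with DESeq2 and with RLE factors, 0.0078 with totals, 0.012 by count over depth, 0.0016 without pan-GABA-low nuclei, 0.0026 without the block, -0.015 to 0.013 with a library left out, and under the cut-site gate 0.019 and 0.0077 without hippocampus replicate 1 or 2. The MEF2D motif was -0.0041 at middle depth and -0.0050 with the top 10%. Mef2a was 0.014 with the top 10% there, and in Pvalb-high minus Sst-high nuclei 0.093 (common regions), 0.12 (cut-site gate; 0.048, 0.10, 0.15 and 0.15 with a library left out), 0.022 (count over depth), 0.16 (middle depth) and 0.20 (top 10%), and -0.15 to 0.14 in Sst-high minus Adarb2-high nuclei with a library left out. Mef2d was 0.020 in Pvalb-high minus Sst-high nuclei within 2 kb of a start, -0.017 (pan-GABA-low nuclei left out) and -0.020 (within 2 kb) in Sst-high minus Adarb2-high nuclei, and with a library left out -0.029 to 0.040, -0.061 to 0.046 and -0.0056 to 0.040 (0.019 in Pvalb-high minus Adarb2-high nuclei under the cut-site gate without cortex replicate 1).

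Hippocampus minus cortex, covered length as an offset gave 0.36 for Mef2a, 0.36 for Mef2c and 0.15 for Mef2d, and common regions 0.079 for Mef2a. With a library left out the ranges were -1.09 to 0.11 (Mef2a), -0.71 to 0.62 (Mef2c), -0.97 to 0.15 (MEF2A motif), -1.05 to 0.093 (MEF2B), -0.96 to 0.18 (MEF2C) and -0.84 to 0.38 (MEF2D). Replicate numbers are shared by the tissues, and the labels do not say what a number marks. The difference of replicates correlated across genes at r = 0.169, and with 2 pairs the numbers were not taken as pairs. With the replicate block the values were -0.51, -0.083 and -0.39 for the 3 genes and -0.44 for the MEF2C motif, and no call changed. With 2 libraries per tissue, the 95% interval of Mef2c reached from -1.16 to 0.73.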
